A study of Homo sapiens with 12 samples.

Results

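RNA of SK-N-SH cells grown on the stiffest of 3 surfaces, 30 kPa, was compared with RNA of the same line on the softest, 1 kPa. The comparison takes the 4 libraries labelled 30 kPa and the 4 labelled 1 kPa, 8 of the 12 libraries in the series, and the other 4 come from 8 kPa. The whole deposited table of 60664 genes entered, and 17960 genes had enough counts to be tested. SK-N-SH is a human neuroblastoma line in which neuron-like cells and flat, surface-adherent cells grow together, and a kilopascal (kPa) is a unit of stiffness, so a low value means a soft surface. Both groups are this 1 line, unmodified as far as the labels say, and differ in the labels by stiffness and replicate number alone. The material and coating of the surface, the time on it and whether the 4 libraries of a group came from separate cultures are not given in the sources used here. P-values therefore reflect differences among libraries, some of which could be technical.

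All 1 kPa libraries had lower totals than all 30 kPa libraries. The 1 kPa libraries held 14317437 to 15896607 counts and the 30 kPa libraries 23896536 to 27820973 (two-sided exact permutation p = 0.0286, the smallest that 4 against 4 allows; 0.0644 after Benjamini-Hochberg adjustment over 9 library measures). Depth and stiffness cannot be told apart within these 8 libraries. At 8 kPa, replicate 1 was as shallow as the 1 kPa libraries, with 14951116 counts, and the other 3 were deep. After every library was thinned to the smallest total, 25300 to 25660 genes were detected at 1 kPa and 25200 to 25550 at 30 kPa (exact permutation p = 0.486). Genes rich in G and C were read relatively more at 30 kPa: the rank correlation across genes of GC content with a library's level relative to the mean library lay between -0.21 and 0.01 in the 1 kPa libraries and between 0.02 and 0.26 in the 30 kPa ones (exact permutation p = 0.0286, adjusted 0.0644). The part of GC content in the results was not tested beyond the fit with a GC offset given below.

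Cells pull on the surface they sit on through integrins, the adhesion receptors, and through actin and myosin. On stiff surfaces many cell types move the co-activators YAP and TAZ into the nucleus, where they switch on genes together with the TEAD factors. Immediate-early genes such as FOS and EGR1 answer growth factors, stretch and handling within minutes, and genes of mitosis are transcribed mainly in cells that are about to divide. In neuroblastoma, an adrenergic state resembling sympathetic neurons and a mesenchymal state resembling migratory crest cells are set apart by their transcription factors.

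The line showed its known identity. PHOX2A, HAND2, ISL1, GATA3, DBH, CHGA and STMN2, which mark sympathetic neuroblasts, were detected in all 8 libraries, while TH, the first enzyme of catecholamine synthesis, was at 0 counts in 7 of 8. Markers of matrix-making cells, on a list of fibroblast genes, were also present, as LUM was at 368 to 587 counts per 1000000 counts of the library (CPM) over the 8 libraries. The summed level of the 9 fibroblast markers was 1405 to 1958 CPM at 1 kPa and 1669 to 1856 CPM at 30 kPa, and 0 of 9 passed the edgeR test described next (1 at an unadjusted p under 0.05, 0 by DESeq2, and 1 lower with the replicate number as a block, DCN). Immune markers were at or near 0: the highest of the 10 was CD14, at most 0.501 CPM, and MS4A1, NKG7, TYROBP and HBB had no counts in 8 of 8. Of 5 tested epithelial markers 0 passed by edgeR (0 at an unadjusted p under 0.05, 0 by DESeq2), with a median log2 fold change of -0.07. Of 2 tested endothelial markers 0 passed, and PECAM1, an adhesion molecule named after its values were seen, had an adjusted p of 0.0521 (log2 fold change -1.75), or 0.0468 in the fit blocked by replicate, and passed in DESeq2 (0.0119), while CDH5, the cadherin that defines endothelium, had no counts in 7 of 8.

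At 30 kPa, genes of mitosis, the oncogene MYC and the receptor tyrosine kinase ALK were higher. The adrenergic regulator PHOX2A narrowly passed as higher (edgeR adjusted p = 0.0475), a call lost in 10 of the 12 fits without 1 library. Some immediate-early, matrix and interferon-induced genes (4 of 27, 3 of 26 and 4 of 29 listed), the TAZ gene WWTR1 and the secretory protein genes SERPINI1 and SCG2 were lower. In edgeR (quasi-likelihood F-test, p-values adjusted by the Benjamini-Hochberg method over all tested genes, threshold 0.05) 437 of 17960 genes passed, 2.43% of those tested. Of these, 198 rose (1.1% of those tested) and 239 fell (1.33%). Changes were mostly modest, with a median size on the log2 scale of 0.43 for those that rose and 0.44 for those that fell, and 37 genes (0.206%) passed with a change of at least 2-fold. The libraries of the groups did not overlap for 429 of the 437, against 2046 of all tested genes (11.4%). The 437 were selected for group differences large against their spread, so this separation is no independent support. Every adjusted p below is from that edgeR test. Before adjustment, 3393 of the 17960 genes had a p under 0.05, the background for counts of list members at an unadjusted p.

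**Figure D1:**
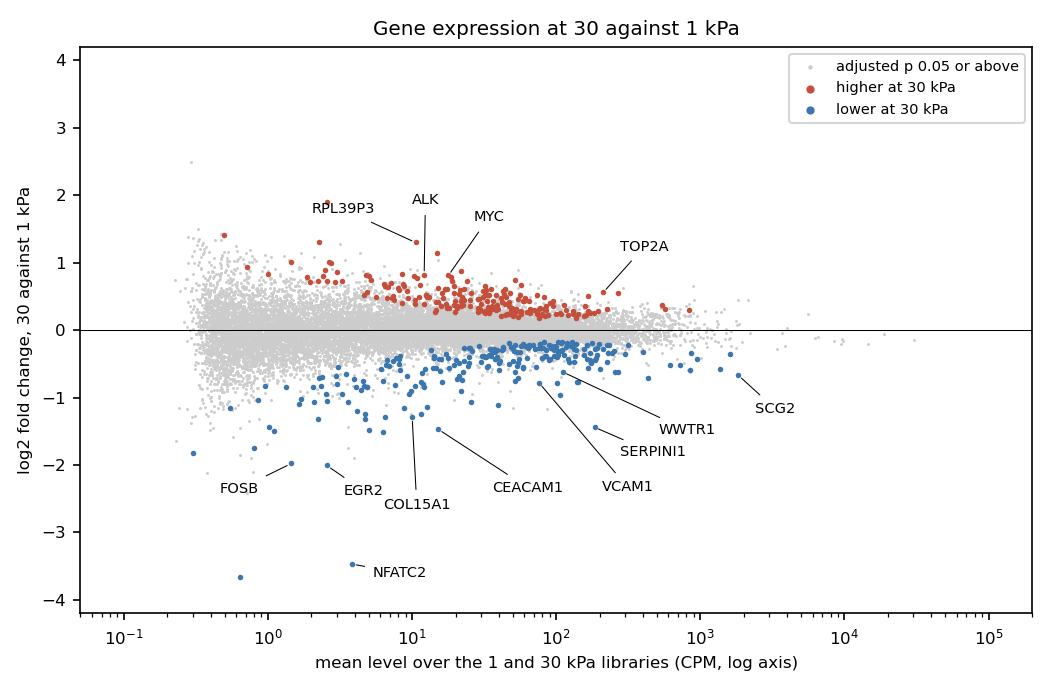
Log2 fold change at 30 against 1 kPa (vertical axis) against the mean level over the 8 libraries in CPM (horizontal, log axis), 1 point per tested gene, with coloured points past the threshold of 0.05. The 198 genes that rose and the 239 that fell lie mostly within 1 log2 unit of 0, and NFATC2, at -3.47, lies far below the other labelled genes.

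The count of calls moved with the libraries and with depth. Without 30 kPa replicate 3 it was 50, and those 50 genes were also the ones called in all 12 fits that left out 1 library. Removing 30 kPa replicate 4 left 135, and removing 30 kPa replicate 1 or 2 left 225 or 217. Among the soft libraries, removing replicate 1 left 156 and removing replicate 3 left 153, while removing replicate 2 gave 451 and removing replicate 4 gave 583. The balance of directions turned with these libraries: 14 were higher and 36 lower without 30 kPa replicate 3, and 380 higher and 203 lower without 1 kPa replicate 4. Of the 8 kPa libraries, which add to the estimate of the spread, removing replicate 3 left 237 and removing replicate 4 gave 676. All 437 kept their direction in each of these 12 fits. As each shares all but 1 library with the fit that selected them, this is no independent support. Thinning every library to the smallest total left 349 calls. With the depth class (below or above 20000000 counts) as a term, which leaves the comparison resting on 8 kPa replicate 1, edgeR called 0 genes, with 1763 at an unadjusted p under 0.05 and 436 of the 437 in the same direction. With the replicate number as a block, 974 genes passed (5.42%), 445 higher (2.48%) and 529 lower (2.95%). DESeq2 called 1068 (5.95%), 533 higher (2.97%) and 535 lower (2.98%).

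**Figure D2:**
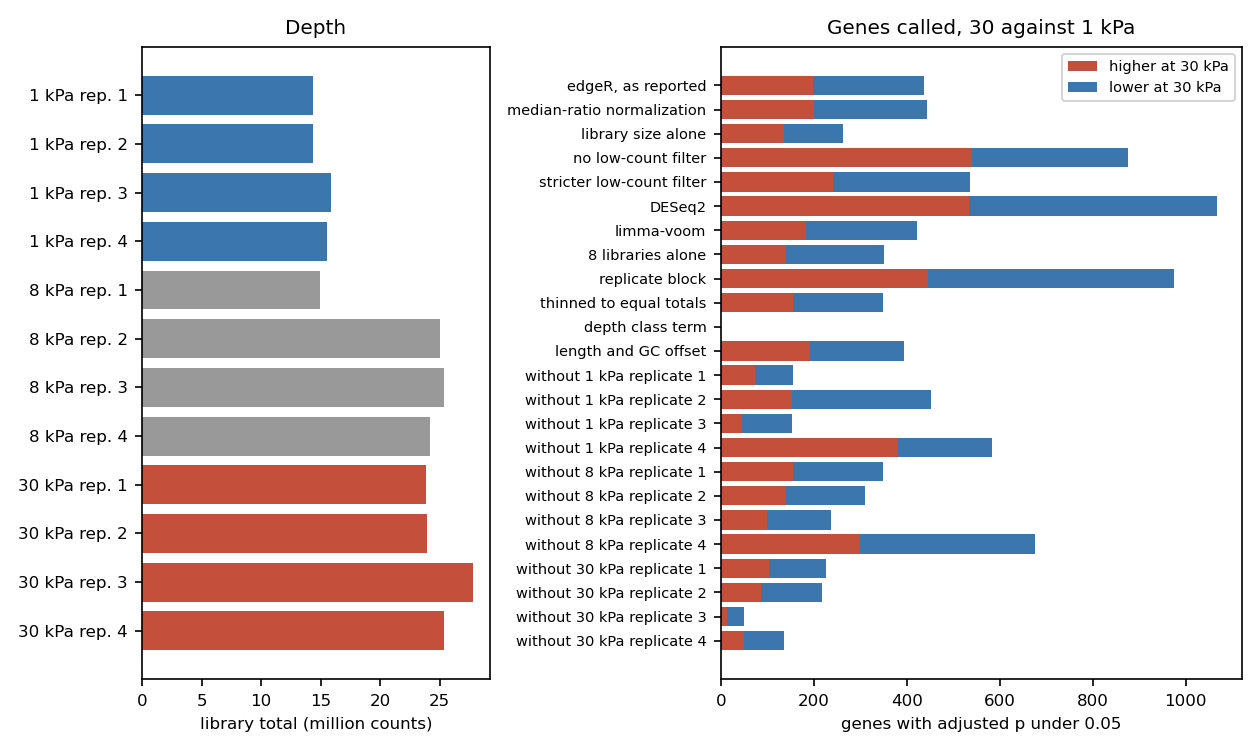
Left, the total count of each library; right, the number of genes with adjusted p under 0.05 that were higher or lower at 30 kPa under each setting and without each library. The 1 kPa bars and that of 8 kPa replicate 1 are all shorter than the other 7, and the call count runs from 0 with the depth class term and 50 without 30 kPa replicate 3 to 1068 with DESeq2.

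Genes that rose and genes that fell differed in build. The median transcript was 2960 bases long with 50.2% G and C for those that rose, and 4797 bases with 45.5% for those that fell, beside 3154 bases and 47.9% over all tested genes. The rank correlation of transcript length with a library's level relative to the mean library was 0.10 to 0.20 in the 1 kPa libraries. At 30 kPa it was 0.12 and 0.15 in replicates 1 and 2 but -0.09 and -0.19 in replicates 3 and 4 (two-sided exact permutation p = 0.2). The part of this length profile in the results was not tested beyond the offset fit that follows. A fit of the same libraries with an offset for transcript length and GC content per library called 394 genes, 192 higher and 202 lower. All 437 kept their direction in this fit, which is no independent support as the libraries are the same. Of the genes named below, BMPR2 (adjusted p = 0.126), SKIL (0.0866), YAP1 (0.0754), PHOX2A (0.068), CDH2 (0.0567), RMEL3 (0.0529) and MCM2 (0.0513) lost their calls in it.

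Genes of mitosis formed the group with the most members past the threshold. Of 28 tested members of the 29 on the G2/M list (NUSAP1 was not tested), 19 rose and 0 fell, where 1.1% of all tested genes rose. The median log2 fold change was 0.47, against 0.00 over all genes. For 27 of 28 every 30 kPa library was above every 1 kPa library, which held for 5.33% of all tested genes. The summed level of the list was 1171 to 1565 CPM in the 1 kPa libraries and 1817 to 2227 CPM in the 30 kPa libraries. The exception was PRC1, which bundles spindle microtubules, at most 0.584 CPM in any of the 8 libraries and with a value of -0.20 on the log2 scale (adjusted p = 0.814). At so low a level its direction is uncertain, and how its reads were counted is not known.

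HMMR, a spindle-associated hyaluronan receptor, stood at 34.2, 31.5, 37.1 and 37.8 CPM in 1 kPa replicates 1 to 4 and at 48.8, 49.9, 64.6 and 51.1 CPM in 30 kPa replicates 1 to 4. The lowest 30 kPa library was thus above the highest 1 kPa library, and 30 kPa replicate 3 stood above the other 3. HMMR rose by 0.61 on the log2 scale (SE 0.0891, adjusted p = 0.00596). DLGAP5, which stabilises spindle fibres, went from 25.99, 21.5, 26.1 and 29.4 CPM to 34.7, 38.1, 42.3 and 40.9 CPM and rose by 0.60 (SE 0.0951, adjusted p = 0.00822). HMMR and DLGAP5 passed whichever of the 12 libraries was removed. TOP2A, the topoisomerase that untangles DNA before chromosomes part, was at 178, 139, 169 and 198 CPM at 1 kPa and at 242, 239, 284 and 246 CPM at 30 kPa. These groups did not overlap either, and 1 kPa replicate 2 was the lowest of the 8. TOP2A rose by 0.56 (adjusted p = 0.0122; 0.0601 without 30 kPa replicate 3).

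CENPF, a kinetochore protein, rose by 0.54 (adjusted p = 0.0205; 0.0822 without 30 kPa replicate 3), from 217 ± 27.3 to 317 ± 32.0 CPM (SD, n = 4 each). Further members, chosen after their values were seen, covered the steps of division. CDK1, the kinase that starts mitosis, rose by 0.44 and its partner CCNB1 by 0.47. KIF20A, a kinesin of the dividing furrow, rose by 0.58, and KIF11, the kinesin that pushes spindle poles apart, by 0.43. KIF11 lost its call in 9 of the 12 fits that left out a library (highest adjusted p 0.147), and CDK1 in those without 1 kPa replicate 3 or 30 kPa replicate 3 (highest 0.0612). UBE2C, which helps to destroy mitotic cyclins, rose by 0.59. MKI67, the usual proliferation marker, stood at 198, 123, 169 and 209 CPM at 1 kPa and at 218, 232, 232 and 227 CPM at 30 kPa. Its groups did not overlap, and its value of 0.38 on the log2 scale (SE 0.118, adjusted p = 0.0998) passed without 1 kPa replicate 4 (adjusted p = 0.0416).

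The number of mitosis genes that rose was 2 without 30 kPa replicate 3, where HMMR and DLGAP5 were the members left. It was 4 without 1 kPa replicate 3 or without 30 kPa replicate 4, and 7 without 1 kPa replicate 1. Thinning to equal totals gave 17, the length and GC offset 20 and the depth class term 0. As the median over the 28 genes of log2(CPM + 0.5) relative to the mean of the 8 libraries, the list stood at -0.50 to -0.07 in the 1 kPa libraries and at 0.13 to 0.44 in the 30 kPa libraries. On the same scale the 8 kPa libraries stood at 0.08 to 0.33. The shallow 8 kPa replicate 1, at 0.22, lay within the range of the deep 8 kPa libraries and within that of the 30 kPa libraries. The part of depth in this list was not tested further. In these bulk samples, a larger share of cells in division and more RNA per dividing cell cannot be told apart.

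**Figure D3:**
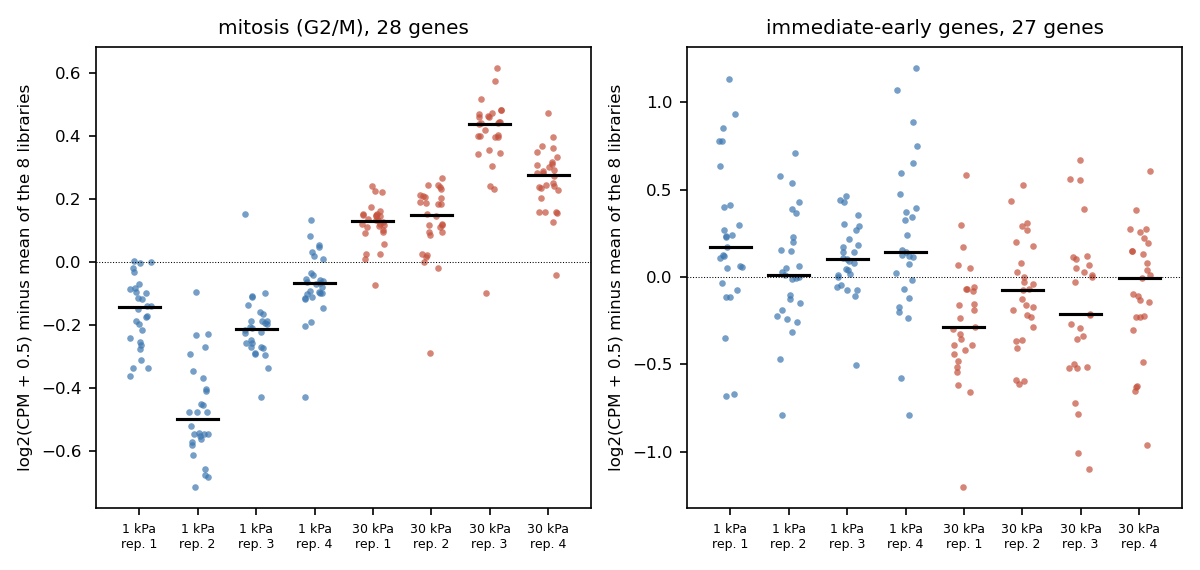
Each point is 1 gene in 1 library, as log2(CPM + 0.5) minus its mean over the 8 libraries, with the median as a bar, for 28 mitosis genes (left) and 27 immediate-early genes (right). Mitosis medians lie between -0.50 and -0.07 in the soft libraries and between 0.13 and 0.44 in the stiff ones, and immediate-early medians between 0.01 and 0.17 in the soft and between -0.29 and -0.01 in the stiff ones.

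Promoters of mitosis genes are known for a pair of elements, the cell cycle homology region (CHR, TTTGAA) and the CCAAT box bound by NF-Y, and many serum-induced genes carry a CArG box bound by SRF. Because the mitosis members moved together, their promoters were searched for these letters on both strands, in the 250 bases before each RefSeq start (GRCh38.p14). TTTGAA was present in 17 of 27 windows of 24 mitosis genes (63.0%) and in 9.54% of the 17624 windows of tested genes. Those 17624 windows cover 12168 of the 17960 tested genes. CCAAT was present in 21 of 27 (77.8%) and in 32.8% of all. Over the genes that rose, 21.2% of 217 windows held TTTGAA, and over those that fell, 9.65% of 311. These windows cover 153 of the 198 genes that rose and 184 of the 239 that fell. The called mitosis genes are among those that rose, so the 21.2% is no separate observation. A match is a description of the letters and not evidence of a bound site. The windows below are those of the called mitosis genes that hold no annotated exon, 3 of 18, with TTTGAA and CCAAT on either strand in capitals, followed by EGR1 with its CArG boxes in capitals. They lie at chr10:60778081-60778330 (CDK1), chr1:214602945-214603194 (CENPF), chr10:92592880-92593129 (KIF11) and chr5:138465229-138465478 (EGR1), all on the plus strand.
CDK1: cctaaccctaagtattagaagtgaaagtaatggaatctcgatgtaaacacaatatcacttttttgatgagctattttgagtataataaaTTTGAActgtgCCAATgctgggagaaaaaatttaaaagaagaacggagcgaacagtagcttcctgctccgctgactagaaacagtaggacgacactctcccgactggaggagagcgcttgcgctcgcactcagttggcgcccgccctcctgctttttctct
CENPF: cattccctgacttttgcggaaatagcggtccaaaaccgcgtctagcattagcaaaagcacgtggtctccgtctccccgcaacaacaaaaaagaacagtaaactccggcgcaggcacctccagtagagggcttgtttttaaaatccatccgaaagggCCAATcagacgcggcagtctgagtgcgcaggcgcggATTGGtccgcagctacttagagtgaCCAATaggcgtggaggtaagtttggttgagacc
KIF11: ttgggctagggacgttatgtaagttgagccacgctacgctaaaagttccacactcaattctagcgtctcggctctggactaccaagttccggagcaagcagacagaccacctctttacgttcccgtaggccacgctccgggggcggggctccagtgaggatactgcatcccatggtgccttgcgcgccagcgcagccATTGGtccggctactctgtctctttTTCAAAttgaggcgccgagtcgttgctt
EGR1: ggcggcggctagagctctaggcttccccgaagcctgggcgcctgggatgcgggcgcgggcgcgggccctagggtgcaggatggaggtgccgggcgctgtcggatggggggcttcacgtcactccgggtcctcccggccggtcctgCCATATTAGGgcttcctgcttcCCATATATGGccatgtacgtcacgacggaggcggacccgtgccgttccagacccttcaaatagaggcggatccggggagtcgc

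The CDK1 window held both motifs close together, TTTGAA beginning 161 and CCAAT 150 bases before the start, and KIF11 held them 28 and 53 bases before it, both on the opposite strand. CENPF held 3 CCAAT matches and no TTTGAA in this window. The EGR1 window held 2 CArG boxes, beginning 105 and 83 bases before the start. The CArG box was found in 2 of 23 windows of immediate-early genes (8.70%) and in 1.07% of all.

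Genes that copy DNA leaned the same way with few calls. Of 30 DNA replication genes 4 rose and 0 fell, against 1.1% and 1.33% of all tested genes, with a median log2 fold change of 0.27. With the block 6 rose, where 2.48% of all tested genes did. With library size alone or with the 8 libraries alone 0 of the 30 rose. POLD1, a DNA polymerase subunit, was one of the 4. RRM2 and RRM1, the subunits of the reductase that makes deoxynucleotides, rose by 0.36 (adjusted p = 0.0399) and 0.29 (adjusted p = 0.0448), and MCM2, a helicase subunit, by 0.42 (adjusted p = 0.042). Without 30 kPa replicate 3, none of the 30 passed (adjusted p = 0.131, 0.152 and 0.133 for these genes). H2BC11, a replication-dependent histone, was the 1 of 14 histone genes that rose (0.73, adjusted p = 0.0294; 0.103 without 30 kPa replicate 3). It is a low gene, at 2.15 to 2.94 CPM at 1 kPa and 3.64 to 4.94 CPM at 30 kPa, and histone genes are near-identical in sequence, so its value is uncertain.

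All 33 cytosolic ribosomal protein genes had positive log2 fold changes, from 0.15 to 0.44 with a median of 0.25. Of them 1 passed (3.03%), near the 2.43% of all tested genes. At an unadjusted p under 0.05 there were 29 of the 33, and 3393 of all 17960 tested genes. DESeq2 called 10 of the 33 higher, where it called 2.97% of all tested genes higher. RPS3, a protein of the small subunit, rose by 0.37, from 475 ± 59.3 to 612 ± 36.7 CPM (SD, n = 4 each; adjusted p = 0.0427). With the replicate number as a block, 13 of 33 rose (2.48% of all tested genes did), and with library size alone or the 8 libraries alone 0 of 33 did. Without 30 kPa replicate 3, none passed (RPS3, adjusted p = 0.126). PABPC1, which binds the poly(A) tail, rose by 0.32 (adjusted p = 0.0214). The 13 proteins encoded by the mitochondrial genome all had negative values, from -0.62 to -0.04, and 0 passed by edgeR or DESeq2 (1 at an unadjusted p under 0.05). All mitochondrial genes together took 13.5% ± 1.59 of counts in the soft group and 12.4% ± 0.605 in the stiff group (SD, n = 4 each), a difference that did not pass (two-sided exact permutation p = 0.257; 0.0286 without 1 kPa replicate 4). Among nuclear genes of oxidative phosphorylation 0 of 31 passed by edgeR (median 0.06), with 8 at an unadjusted p under 0.05 and 1 called by DESeq2. Of 24 genes of cholesterol synthesis 0 passed (median 0.04), with 2 at an unadjusted p under 0.05 and 0 by DESeq2.

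MYC, a transcription factor that drives growth, was at 15.7, 9.62, 11.8 and 14.7 CPM at 1 kPa and at 25.7, 19.6, 25.1 and 20.6 CPM at 30 kPa. The highest 1 kPa library was below the lowest 30 kPa library. MYC rose by 0.81 (SE 0.139, adjusted p = 0.0125), and lost the call without 30 kPa replicate 3 (adjusted p = 0.0601). Its paralogue MYCN, the gene amplified in many aggressive neuroblastomas, was at most 1.64 CPM in any of the 8 libraries, with overlapping groups and a value of 0.24 on the log2 scale (SE 0.252, adjusted p = 0.659).

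ALK, a growth-promoting receptor that carries mutations in part of neuroblastomas, measured 9.22, 9.04, 8.58 and 8.29 CPM at 1 kPa and at 17.5, 16.2, 16.4 and 11.7 CPM at 30 kPa. The 1 kPa libraries were close together, and among the 30 kPa libraries replicate 4 was nearest to them without overlap. ALK rose by 0.82 (SE 0.133, adjusted p = 0.00919) and passed whichever library was removed (adjusted p at most 0.0454, without 30 kPa replicate 3). SCUBE1, a secreted and membrane-bound EGF-like protein, went from 13.6, 15.6, 13.7 and 12.0 CPM to 23.4, 25.9, 24.0 and 21.7 CPM. SCUBE1 rose by 0.79 (SE 0.0861, adjusted p = 0.00317), with the call held in all 12 fits and no overlap.

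Further large rises by the naming rule are given by gene. CNTN1, a cell adhesion protein of axons, rose by 0.75 (adjusted p = 0.0176), from 38.7 ± 7.67 to 65.2 ± 9.20 CPM (SD, n = 4 each). UBE2QL1, a ubiquitin-conjugating enzyme-like gene, rose by 0.88 (adjusted p = 0.0181), PROKR2, a prokineticin receptor, by 0.84 (adjusted p = 0.0365), NKD1, an inhibitor of Wnt signalling, by 0.80 (adjusted p = 0.0442), and CUX2, a homeobox factor of neurons, by 0.78 (adjusted p = 0.0336). These 5 lost their calls without 30 kPa replicate 3, and without 1 kPa replicate 3. The highest adjusted p in fits without 1 library was 0.117, for NKD1 without 1 kPa replicate 3. In the 8 kPa libraries UBE2QL1 stood at 20.9 to 32.9 CPM, overlapping the 30 kPa range of 25.8 to 31.6, while ALK at 7.90 to 10.6 CPM overlapped the 1 kPa range.

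**Figure D4:**
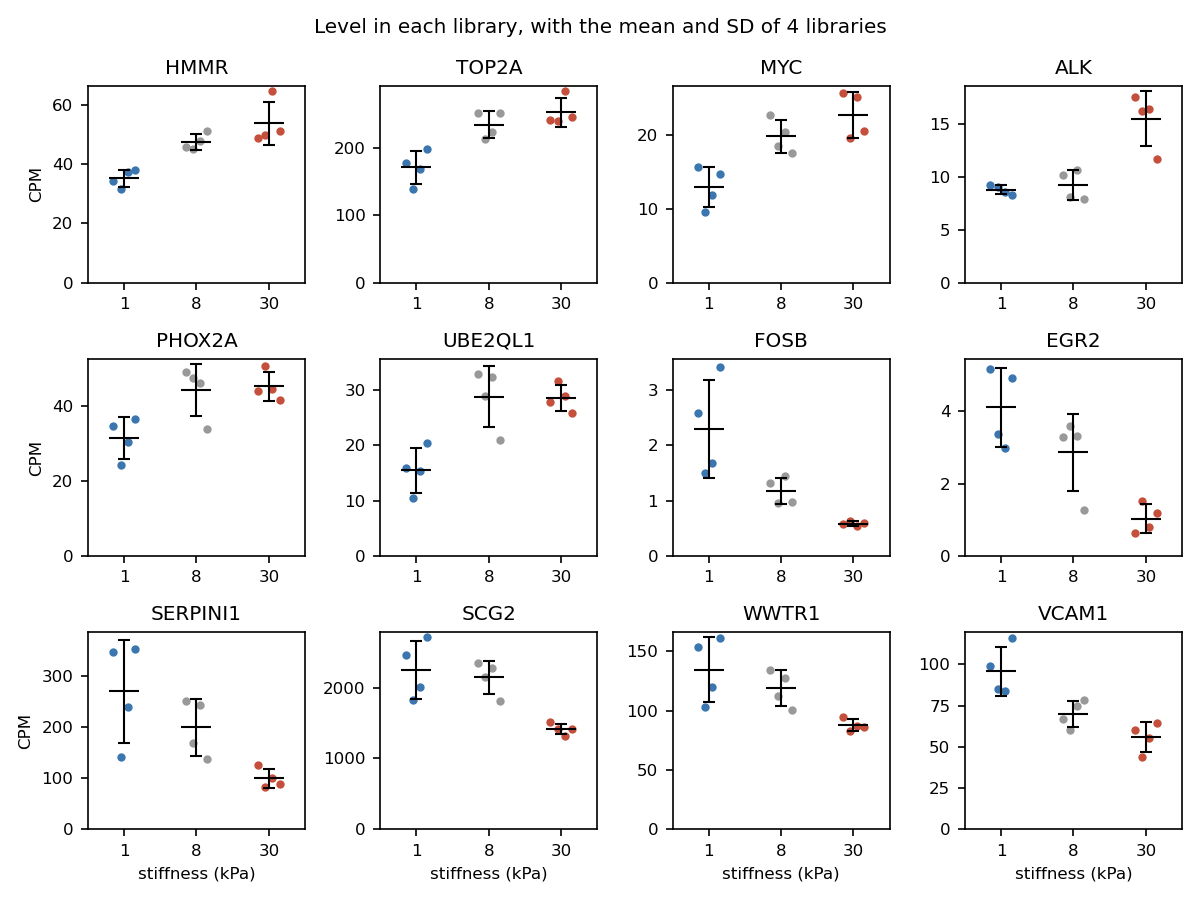
CPM in each library (points) with the mean and SD of 4 libraries (bars) at 1, 8 and 30 kPa for 12 genes, each on a linear axis from 0. HMMR, TOP2A, MYC, ALK, PHOX2A and UBE2QL1 are higher at 30 than at 1 kPa with no overlap, and FOSB, EGR2, SERPINI1, SCG2, WWTR1 and VCAM1 are lower with no overlap.

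The adrenergic list did not move as 1 group. Of 24 tested genes 2 rose and 1 fell, where 1.1% and 1.33% of all tested genes did, with a median log2 fold change of 0.17. PHOX2A, a homeobox factor of sympathetic neurons, was at 34.7, 24.3, 30.2 and 36.6 CPM at 1 kPa and at 43.98, 50.7, 44.6 and 41.7 CPM at 30 kPa. The groups did not overlap, and 1 kPa replicate 2 was the lowest of the 8. PHOX2A rose by 0.52 (SE 0.128, adjusted p = 0.0475), and lost the call in 10 of the 12 fits that removed a library (highest adjusted p 0.127, without 30 kPa replicate 3). With the replicate number as a block 5 of the 24 rose, where 2.48% of all tested genes did. Among the 5 were STMN2, a regulator of growing neurites, and CHGA, a granule protein, named after their values were seen. Their edgeR adjusted p was 0.0412 and 0.0397 with the block, and 0.0858 and 0.0969 without it.

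SCG2, a granule protein of the same list, went the other way. It stood at 2468, 1823, 2016 and 2714 CPM at 1 kPa and at 1512, 1410, 1323 and 1421 CPM at 30 kPa, with no overlap. SCG2 fell by 0.67 (SE 0.118, adjusted p = 0.0139; 0.0622 without 30 kPa replicate 3). Among 26 neurite and neuronal genes the median was 0.31 and 23 were positive, with 1 higher and 1 lower past the threshold (2 and 1 with the replicate block). Over all tested genes 1.1% rose and 1.33% fell (2.48% and 2.95% with the block). SNAP25, which fuses synaptic vesicles, rose by 0.31 (adjusted p = 0.0427), and DPYSL3, which shapes growth cones, fell by 0.41 (adjusted p = 0.021). Both lost the call without 30 kPa replicate 3 (adjusted p = 0.116 and 0.0622).

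Immediate-early genes were lower at 30 kPa for 4 of 27 members, with MYC as the 1 member that rose. The share of all tested genes that fell was 1.33%. The median log2 fold change was -0.23, with 21 of 27 negative. For 6 of 27 every 30 kPa library was below every 1 kPa library, which held for 6.06% of all tested genes. FOSB, an AP-1 subunit, was at 2.58, 1.51, 1.69 and 3.42 CPM at 1 kPa and at 0.584, 0.631, 0.537 and 0.587 CPM at 30 kPa. All 4 stiff-surface libraries were thus below all 4 soft-surface libraries, at a level near the floor where the spread among libraries is uncertain. FOSB fell by 1.98 on the log2 scale (SE 0.269, adjusted p = 0.00487) and passed whichever library was removed. It was too low to be tested under the stricter filter, and DESeq2 gave it no adjusted p.

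EGR2, a zinc finger factor, stood at 5.17, 3.37, 2.99 and 4.94 CPM at 1 kPa and at 0.626, 1.51, 0.788 and 1.18 CPM at 30 kPa, and fell by 2.01 (SE 0.334, adjusted p = 0.0111; 0.0601 without 30 kPa replicate 3). ZFP36, which speeds the decay of short-lived mRNAs, went from 15.4, 12.9, 16.1 and 17.7 CPM to 8.72, 7.53, 8.06 and 10.5 CPM. It fell by 0.84 (SE 0.123, adjusted p = 0.00596) and held in all 12 fits. EGR1, named because its promoter is shown, fell by 0.95 (SE 0.222, adjusted p = 0.0427). Its 1 kPa replicate 2, at 6.17 CPM, lay within the 30 kPa range of 5.55 to 7.87 CPM while the other 1 kPa libraries were at 12.0 to 16.6 CPM, and the adjusted p was 0.117 without 30 kPa replicate 3.

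FOS, chosen after its values were seen, stood at -1.01 on the log2 scale with no overlap (adjusted p = 0.0543) and passed without 1 kPa replicate 2 or 8 kPa replicate 4 (lowest adjusted p 0.0243). JUN (0.42, adjusted p = 0.204) and FOSL1 (0.68, adjusted p = 0.188), further AP-1 subunits, had positive values and overlapping groups. The number of members that fell was 7 with the replicate block, where 2.95% of all tested genes fell. It was 8 without 8 kPa replicate 4 and 2 when 30 kPa replicate 3 was removed, FOSB and ZFP36. The depth class term gave 0. On the scale used for the mitosis list, the 8 kPa libraries stood at 0.05 to 0.16 and the shallow replicate 1 at 0.08, within the 1 kPa range of 0.01 to 0.17 and above the 30 kPa range of -0.29 to -0.01. How soon after handling the cells were lysed is not given in the sources used here.

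**Figure D5:**
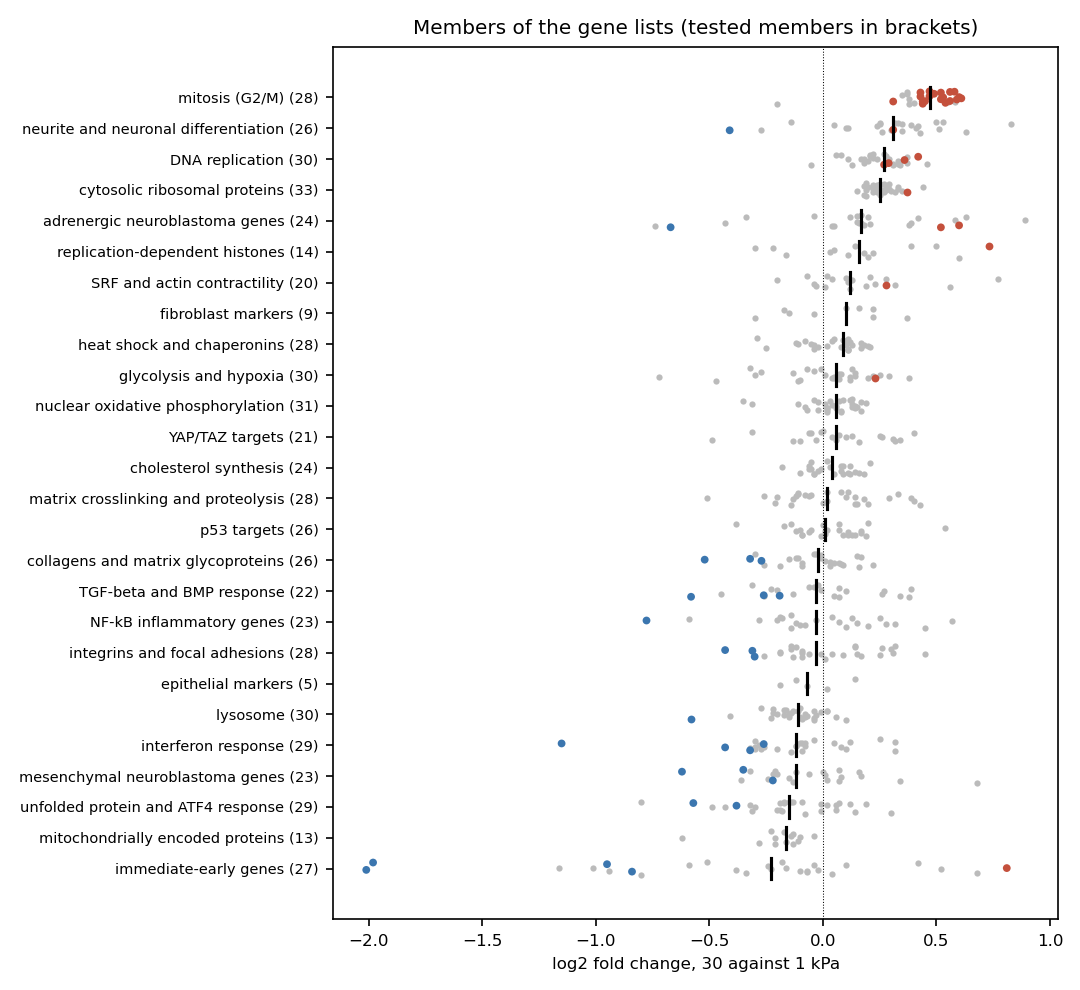
Log2 fold change at 30 against 1 kPa of every tested member of 26 gene lists, with the median as a black bar, members that rose in red and members that fell in blue. Mitosis genes have the highest median, 0.47, with 19 of 28 red, and immediate-early genes the lowest, -0.23, with 4 of 27 blue and 1 red.

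YAP and TAZ were lower as transcripts on the stiff surface. WWTR1, which encodes TAZ, was at 153, 103, 120 and 161 CPM at 1 kPa and at 94.7, 83.0, 87.3 and 86.1 CPM at 30 kPa. The groups did not overlap, and the 30 kPa libraries were much closer together. WWTR1 fell by 0.62 (SE 0.124, adjusted p = 0.0224), and lost the call without 1 kPa replicate 1 or without 30 kPa replicate 2, 3 or 4 (highest adjusted p 0.0819, without replicate 3). YAP1 went from 229, 255, 252 and 236 CPM to 206, 202, 208 and 217 CPM and fell by 0.22 (SE 0.0526, adjusted p = 0.0427), with an adjusted p of 0.131 without 30 kPa replicate 3 and 0.0626 with library size alone in place of TMM.

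Of their DNA-binding partners, named after their values were seen, TEAD3 fell by 0.36 (adjusted p = 0.0477), a call lost in 10 of 12 fits that left out 1 library. TEAD1 stood at -0.28 on the log2 scale (adjusted p = 0.0683; 0.00929 with the replicate block). TEAD2 (-0.14, adjusted p = 0.328) and TEAD4 (0.20, adjusted p = 0.321) did not pass.

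The targets of YAP and TAZ did not pass the test. By edgeR 0 of the 21 tested members passed, and 1 had an unadjusted p under 0.05, as did 3393 of all 17960 tested genes. DESeq2 called 1 higher. The median log2 fold change was 0.06, with 13 positive values. CCN1, a secreted matrix protein and standard YAP output, was at 114, 229, 158 and 52.7 CPM at 1 kPa and at 213, 168, 185 and 131 CPM at 30 kPa. The 1 kPa libraries spanned the whole 30 kPa range, with replicate 4 lowest and replicate 2 highest of the 8. CCN1 had a value of 0.34 on the log2 scale (SE 0.311, adjusted p = 0.612). CCN2 (0.06, SE 0.312, adjusted p = 0.941) and ANKRD1 (-0.31, SE 0.338, adjusted p = 0.684) were as spread, and the summed level of the list was 3072 to 5251 CPM at 1 kPa and 4212 to 4620 CPM at 30 kPa. The values of CCN1 and CCN2 with the depth class term were -0.14 and -0.59.

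Genes of force and adhesion showed few calls. Among 20 SRF and actin genes 1 rose, where 1.1% of all tested genes did. It was MYH10, a nonmuscle myosin heavy chain (0.28, adjusted p = 0.0233). With the replicate number as a block 3 rose, ACTB and ACTG1 (cytoplasmic actins) among them, where 2.48% of all tested genes did. Of 28 integrin and focal adhesion genes 3 fell and 0 rose, where 1.33% and 1.1% of all tested genes did. With the block 5 fell and 1 rose, where 2.95% and 2.48% of all tested genes did. With library size alone 0 passed, and with the 8 libraries alone 0 fell and 1 rose. The 3 that fell were ITGA11, a collagen-binding integrin (-0.43, adjusted p = 0.0427), ZYX, which senses tension in actin fibres (-0.31, adjusted p = 0.0401), and KANK2, an adaptor of focal adhesions (-0.30, adjusted p = 0.042). All of these lost their calls without 30 kPa replicate 3, with adjusted p between 0.0601, for ZYX, and 0.145, for ITGA11.

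Lamins, which set the stiffness of the nucleus, are named here after their values were seen. LMNA stood at 694, 622, 713 and 870 CPM at 1 kPa and at 470, 432, 573 and 556 CPM at 30 kPa, without overlap. It fell by 0.51 (SE 0.123, adjusted p = 0.0448), a call lost in 9 of 12 fits (highest adjusted p 0.0998, without 30 kPa replicate 1). LMNB2 rose by 0.40 (adjusted p = 0.0326; 0.119 without 30 kPa replicate 3), and LMNB1 had a value of 0.29 (adjusted p = 0.173).

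A few matrix genes fell. Of 26 collagens and matrix glycoproteins 3 fell and 0 rose, where 1.33% and 1.1% of all tested genes did, with a median of -0.02. With library size alone 1 fell. COL3A1, a fibrillar collagen, was at 893, 712, 841 and 977 CPM at 1 kPa and at 661, 572, 607 and 555 CPM at 30 kPa. It fell by 0.52 (SE 0.0948, adjusted p = 0.0159), with no overlap. SPARC, a collagen-binding glycoprotein, fell by 0.32 (adjusted p = 0.0299) and COL4A1, of basement membranes, by 0.27 (adjusted p = 0.0427). None of the 3 passed without 30 kPa replicate 3 (adjusted p of COL3A1 0.062).

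COL15A1, a basement membrane collagen outside that list, went from 16.5, 10.9, 13.6 and 15.8 CPM to 6.22, 5.47, 5.98 and 5.56 CPM. Every 30 kPa library was below every 1 kPa library, and COL15A1 fell by 1.29 (SE 0.153, adjusted p = 0.00317) with the call held in all 12 fits. TLL1, a protease that trims procollagen, fell by 1.51 (adjusted p = 0.0122; 0.0601 without 30 kPa replicate 3). ADAMTS2, another procollagen protease, named after its values were seen, rose by 1.30 (SE 0.208, adjusted p = 0.00822) and passed whichever library was removed. Of 28 crosslinking and proteolysis genes 0 passed by edgeR (3 at an unadjusted p under 0.05, 2 called by DESeq2, and 3 lower with the replicate block), and the nearest was PLAT, tissue plasminogen activator (-0.51, adjusted p = 0.0522; 0.0174 with the replicate block). TGFBI, a TGF-beta-induced matrix protein, fell by 0.58 (adjusted p = 0.0309), one of 3 of 22 TGF-beta and BMP genes that fell (1.33% of all tested genes fell), while 0 rose. With the replicate block 4 fell and 1 rose, where 2.95% and 2.48% of all tested genes did. With library size alone 0 of the 22 passed. The others were SKIL, a repressor of SMAD signalling, at -0.26 (adjusted p = 0.0281) and BMPR2, a BMP receptor, at -0.19 (adjusted p = 0.0482). Without 30 kPa replicate 3 none of the 22 passed the test as lower.

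Among mesenchymal neuroblastoma genes 3 of 23 fell and 0 rose, where 1.33% and 1.1% of all tested genes did. In the fit with the replicate block 5 fell and 1 rose, where 2.95% and 2.48% of all tested genes did. The median was -0.12, and WWTR1 and YAP1 were among the 3. PRRX1, a homeobox factor of the mesenchymal state, was the other. It stood at 1820, 1750, 1841 and 1767 CPM at 1 kPa and at 1469, 1390, 1371 and 1398 CPM at 30 kPa, tight and separate groups, and fell by 0.35 (SE 0.0626, adjusted p = 0.0144; 0.0622 without 30 kPa replicate 3). VIM, the intermediate filament of mesenchymal cells, had a value of -0.24 with overlapping groups (adjusted p = 0.368; 0.0311 with the replicate block). EGFR (-0.36, adjusted p = 0.0169) and the cadherin CDH2 (-0.22, adjusted p = 0.0448), both chosen after their values were seen, fell, with adjusted p = 0.0782 and 0.116 without 30 kPa replicate 3.

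Interferon-induced genes were lower for 4 of 29 members and higher for 0, where 1.33% and 1.1% of all tested genes were, with a median of -0.12. With library size alone 2 fell. IFITM1, which blocks virus entry at membranes, stood at 14.7, 6.82, 13.7 and 12.98 CPM at 1 kPa and at 6.55, 4.92, 4.76 and 5.44 CPM at 30 kPa. The groups were separate, but 1 kPa replicate 2 lay close to the 30 kPa libraries. IFITM1 fell by 1.15 (SE 0.235, adjusted p = 0.0231) and its neighbour IFITM3, whose sequence is closely similar, by 0.43 (adjusted p = 0.0447). PARP14, an ADP-ribosyltransferase, went from 109, 119, 116 and 115 CPM to 95.5, 93.8, 85.2 and 93.7 CPM and fell by 0.32 (SE 0.0484, adjusted p = 0.00607). Without 30 kPa replicate 3, PARP14 was the 1 member that passed (adjusted p = 0.0303; IFITM1 0.0921, IFITM3 0.134). ISG15 (0.25), OAS1 (0.32) and OAS3 (0.32), classical interferon targets chosen after their values were seen, had positive values that did not pass (adjusted p = 0.361, 0.311 and 0.208).

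VCAM1, a leukocyte adhesion molecule and the 1 of 23 NF-kB genes that passed, was at 98.7, 85.2, 84.0 and 116 CPM at 1 kPa and at 60.2, 43.6, 55.5 and 64.4 CPM at 30 kPa. The groups were well apart. VCAM1 fell by 0.78 (SE 0.125, adjusted p = 0.00854), held in all 12 fits. GPNMB, a membrane glycoprotein of lysosomes, fell by 0.58 (SE 0.083, adjusted p = 0.00596), from 241 ± 16.2 to 161 ± 20.2 CPM (SD, n = 4 each), and held in all 12 fits. It was the 1 of 30 lysosomal genes that passed. The shares called, 4.35% of the NF-kB and 3.33% of the lysosomal list, were near the 2.43% of all tested genes. With the replicate number as a block 5 of the 30 lysosomal genes fell, where 2.95% of all tested genes did.

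Of 29 unfolded protein and ATF4 genes 2 fell and 0 rose, with a median of -0.15, where 1.33% of all tested genes fell. In the fit with the block 4 fell, where 2.95% of all tested genes did. SLC7A11, the cystine importer, went from 185, 201, 195 and 214 CPM to 119, 149, 111 and 157 CPM and fell by 0.57 (SE 0.111, adjusted p = 0.02; 0.077 without 30 kPa replicate 3). DDIT3, the stress factor CHOP, fell by 0.38 (adjusted p = 0.0443), a call lost in 11 of 12 fits that left out 1 library. NQO1, an NRF2-induced quinone reductase chosen after its values were seen, fell by 0.61 (SE 0.0933, adjusted p = 0.00651), from 312 ± 31.7 to 203 ± 24.3 CPM (SD, n = 4 each), and held in all 12 fits. Of 28 heat shock and chaperonin genes 0 passed by edgeR (median 0.09), with 8 at an unadjusted p under 0.05, as had 3393 of all 17960 tested genes. DESeq2 called 3 of the 28. With the block 3 were higher (CCT7, HSPD1 and CCT3), where 2.48% of all tested genes were. Of 26 p53 targets 0 passed (median 0.01), with 2 at an unadjusted p under 0.05 and 0 by DESeq2. Of 30 glycolysis and hypoxia genes PGAM1, a glycolytic mutase, rose by 0.23 (adjusted p = 0.0344; 0.127 without 30 kPa replicate 3). The share called was 3.33%, near the 2.43% of all tested genes. With the block 2 rose and 1 fell, where 2.48% and 2.95% of all tested genes did.

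Further large falls by the naming rule were those of SERPINI1, CEACAM1, CYP26B1, CBLN2 and TNFAIP8L3. SERPINI1, neuroserpin, an inhibitor of tissue plasminogen activator, was at 347, 141, 239 and 353 CPM at 1 kPa and at 126, 82.8, 100.8 and 88.0 CPM at 30 kPa. The lowest 1 kPa library, replicate 2, was just above the highest 30 kPa library. SERPINI1 fell by 1.44 (SE 0.258, adjusted p = 0.0146), and CEACAM1, a cell adhesion molecule, by 1.47 (SE 0.25, adjusted p = 0.0122), from 22.3 ± 5.80 to 8.07 ± 1.37 CPM (SD, n = 4 each). Both had an adjusted p of 0.0601 without 30 kPa replicate 3, and SERPINI1 also lost the call without 30 kPa replicate 4.

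CYP26B1, which degrades retinoic acid, the differentiation signal of these cells, fell by 1.29 (adjusted p = 0.0195). CBLN2, a secreted synapse organiser, fell by 1.25 (adjusted p = 0.0309), and TNFAIP8L3, a lipid transfer protein, by 1.13 (adjusted p = 0.0158). Without 30 kPa replicate 3 the adjusted p of these genes was 0.0622, 0.113 and 0.0601. NFATC2, a calcium-activated transcription factor chosen after its values were seen, was at 6.43, 3.73, 5.07 and 12.9 CPM at 1 kPa and at 0.417, 0.505, 0.466 and 1.14 CPM at 30 kPa. The groups did not overlap, and NFATC2 fell by 3.47 (SE 0.424, adjusted p = 0.00317) with the call held in all 12 fits.

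Genes that do not code for protein by GENCODE v29 need care in reading. The processed pseudogenes RPL39P3, RPS27P3 and RPL7AP6 rose by 1.30, 1.14 and 0.68 (adjusted p = 0.00876, 0.0158 and 0.0165), but are copies of ribosomal protein genes, and as the counting of reads that match both is not known their values are uncertain. For RPS27P3 the shallow 8 kPa replicate 1 stood at 11.0 CPM, against 7.68 to 11.0 CPM at 1 kPa, and the deep libraries at 17.0 to 25.7 CPM. Its value with the depth class term was 0.03, and the part of depth was not tested further. OR10AC1, an olfactory receptor annotated as a polymorphic pseudogene, fell by 1.11 (SE 0.143, adjusted p = 0.00317) from 54.2 ± 4.16 to 25.1 ± 2.64 CPM (SD, n = 4 each) and held in all 12 fits. The antisense transcript RMEL3 and the pseudogene FBXL21P fell by 1.49 (adjusted p = 0.0467) and 0.75 (adjusted p = 0.0169), and both lost the call without 30 kPa replicate 3 (adjusted p = 0.147 and 0.0622).

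By level, the called genes with the highest mean CPM that rose were RPS3, PABPC1, TUBB, IPO5 and CENPF. TUBB, a tubulin, rose by 0.29 (adjusted p = 0.0353) and IPO5, an importin that carries ribosomal proteins into the nucleus, by 0.32 (adjusted p = 0.0309). Those that fell were SCG2, PRRX1, TGFBI, ITGA11 and NIBAN1, a stress-linked regulator of translation, which fell by 0.33 (adjusted p = 0.0242). TUBB, IPO5 and NIBAN1 did not pass without 30 kPa replicate 3 (adjusted p = 0.131, 0.116 and 0.102).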

How the data were processed

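RNA-seq of SK-N-SH cells gave 12 libraries, 4 each at 1, 8 and 30 kPa, of which the 1 and 30 kPa groups were compared. Reads were aligned with HISAT2 to GRCh38, per the submitters' processing notes. The authors deposited raw counts per gene and library. The counting tool, annotation release, strand setting and filters are not given in the sources used here, and without strand, reads of a gene and its antisense partner cannot be told apart. Names were matched for 60463 of 60664 identifiers, and positions, exons and gene types come from GENCODE v29 (GRCh38).

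Genes were filtered with filterByExpr and scaled by TMM in edgeR 4.0.16 (R 4.3.3), leaving 17960 genes with at least 99.87% of counts in every library. All 12 libraries were fitted with stiffness as the only term, so that 8 kPa adds to the estimate of the spread, and 30 against 1 kPa was tested by the quasi-likelihood F-test with Benjamini-Hochberg adjustment over all tested genes. Each standard error (SE) is the log2 fold change over the root of F. CPM are counts per 1000000 after TMM, and those of the marker genes that name the line are per 1000000 of the library total. Library measures were compared by two-sided exact permutation tests. The alternatives tried were DESeq2 1.42.0, limma-voom (limma 3.58.1), median-ratio factors, library size alone, a mean of at least 5 CPM or no filter, 8 libraries alone, a replicate block, thinning, a depth class term, a length and GC offset and leaving out each library. The edgeR, DESeq2 and limma steps were tested on simulated data.

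Named genes were the 8 highest and 8 lowest changes among called protein-coding genes of at least 5 mean CPM without overlap, the 3 highest and 3 lowest among other genes, the 5 called genes of highest level in each direction, up to 3 called members of each list with the smallest adjusted p (otherwise the nearest 1), and 10 fixed genes. Others, and members named for a value with the block, were chosen after their values were seen. The values of 1 gene that met these rules are not reported here. The comparison, the 28 lists and these rules were chosen with earlier results of these data known.

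Same-numbered 1 and 30 kPa libraries deviated from their group means together across genes (r = 0.19, 0.27, 0.31 and 0.12 for replicates 1 to 4). Unlike numbers had r from -0.38 to 0.24, the highest for 1 kPa replicate 3 with 30 kPa replicate 4. The labels do not say what the numbers share. By the rule that every same-numbered r be over 0.1 the numbers were taken as possible pairs, in the blocked fit alone. Some unlike numbers also had r over 0.1, so this rule does not set same numbers apart. The main fit left the numbers out, and values with the block are given where they change a call of a named gene or move a list's count by over 1.5 times.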

Additional observations from a re-analysis of the deposited data

Results flagged for a closer look

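In 194 groups of 4 libraries, the levels of each named gene and the library measures were searched for a highest or lowest library set apart from the others by more than Dixon's critical gap for 4 values. Chance marks about 1 group in 20, and 7 groups were marked.

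Of these, 3 concern 30 kPa replicate 3, the deepest library, whose removal left 50 calls. HMMR stood there at 64.6 CPM and TOP2A at 284 CPM, above the other 30 kPa libraries, and PARP14 at 85.2 CPM, below them. For all 3 genes this library was the farthest from the 1 kPa group. NFATC2 was at 1.14 CPM in 30 kPa replicate 4, above the other 30 kPa libraries and below every 1 kPa library. CEACAM1 was at 10.1 CPM in 30 kPa replicate 1, above the other 30 kPa libraries. SNAP25 was at 44.1 CPM in 1 kPa replicate 4, below the other 1 kPa libraries. The number of genes detected was lowest in 1 kPa replicate 2, at 25400, below the other 1 kPa libraries. That library was also the farthest out on the first principal component of the 12 libraries (42.3% of the variance), at -29.82.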

How the results depend on the processing

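The 437 calls were 263 with library size alone (136 higher, 127 lower), 875 with no low-count filter (540 higher, 335 lower), 1068 with DESeq2, 974 with the replicate block and 0 with the depth class term, and ran from 50 to 676 when 1 library was left out. The 37 calls of at least 2-fold were 71 with no filter, 14 with a stricter one, 56 with the block and 0 with the depth class term, and ran from 7 to 72. The share of calls that were higher was 45.3%, 61.7% with no filter, and 14 of 50 without 30 kPa replicate 3 to 380 of 583 without 1 kPa replicate 4. Mitosis genes that rose were 0 with the depth class term and 2 to 23 without 1 library. Immediate-early genes that fell were 8 with no filter, 7 with the block, 0 with the depth class term and 2 to 8 without 1 library. With the depth class term, list medians were -0.19 for YAP/TAZ targets, 0.01 for SRF genes, -0.21 for collagens, -0.17 for crosslinking, -0.18 for mesenchymal genes, 0.33 for histones, -0.20 for lysosomes, -0.25 for TGF-beta and BMP genes and -0.08 for p53 targets, and medians of the same sign grew to 0.35 for adrenergic, 0.56 for neurite, 0.38 for ribosomal and -0.31 for mitochondrially encoded genes. A stricter filter, which tests fewer genes, gave -0.10 for immediate-early genes and 0.03 for epithelial markers. Without 1 library, medians fell as low as 0.16 for DNA replication, 0.18 for neurite and 0.10 for adrenergic genes, and ran from -0.14 to -0.04 for mesenchymal, -0.18 to -0.11 for interferon, -0.34 to -0.17 for immediate-early and -0.06 to 0.02 for TGF-beta and BMP genes, and the difference in mitochondrial share, -1.06 percentage points, ran from -1.79 (without 1 kPa replicate 4, exact permutation p = 0.0286) to -0.61. Reversals, in genes that did not pass, were CCN1 (-0.14), CCN2 (-0.59), KRT18 (-0.18) and CD14 (0.74) with the depth class term, CCN2 on removing soft replicate 1 (-0.05) or 4 (-0.19) or stiff replicate 1 (-0.02) or 3 (-0.01) (from -0.19 to 0.40 over all removals), and CD14 without 30 kPa replicate 4 (0.06). Apart from the filters, whose number of tested genes differs, the cause of these shifts was not tested. The replicate block kept 436 of the 437 calls, and all 63 called genes of the naming rule. As that fit used the same libraries and called 974 genes, this is no independent support.

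Depth limits low genes most, such as FOSB, EGR2 and NFATC2, whose levels at 30 kPa were near 1 CPM or below, and the depth class of a library cannot be told apart from stiffness except through 1 shallow 8 kPa library. Immune and endothelial markers had fewer than 3 tested members and no list median.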

Other observations

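One 8 kPa library stood apart from the other 3. On the second principal component of the 12 libraries (20.1% of the variance) 8 kPa replicate 4 was at -11.53, within the 30 kPa range of -13.9 to -3.11, while the other 8 kPa libraries were at 2.35 to 5.38 and the 1 kPa libraries at 3.87 to 13.5. Among genes lower at 30 kPa, SERPINI1 was at 137 CPM there and at 168 to 250 CPM in the other 8 kPa libraries. CEACAM1 was at 8.43 against 14.7 to 20.6 CPM, and EGR2 at 1.27 against 3.28 to 3.58 CPM. The mean of 30 kPa for these genes, chosen after their values were seen, was 99.4, 8.07 and 1.03 CPM. Other genes went the other way in this library: LMNA at 698 CPM, VCAM1 at 78.3, ZFP36 at 12.2 and TGFBI at 1450, all lower at 30 than at 1 kPa, were highest there of the 8 kPa libraries. ALK at 7.90 and PHOX2A at 33.9 CPM, both higher at 30 kPa, were lowest there and within the 1 kPa range or below it. In mitosis genes this library, at 0.33 on the median scale of the report, was the highest of the 8 kPa libraries.

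Among the 50 genes called in all 12 fits that left out 1 library, chosen after their values were seen, HMGA2, a chromatin protein of embryonic and mesenchymal cells, fell by 0.34 (SE 0.0536) and ITGA10, a collagen-binding integrin, fell by 0.90 (SE 0.142).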
